A study of Mus musculus with 4 samples.

Results

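The levels of 10 genes commonly counted in the effector and memory programme of T cells were followed, namely the galectins Lgals1 and Lgals3, the intermediate filament gene Vim, the LIM protein gene Crip1, the S100 genes S100a4, S100a6, S100a10 and S100a11, and the annexins Anxa1 and Anxa2. They were found by symbol in the probe annotation, which gave 15 features for the 10 genes, of 33709 features for 19087 genes in all. The genes were chosen by their db/db against db/+ differences on these same arrays, so those differences are a description, and nothing is read from a count of their features past a threshold. RNA came from CD4+CD25- T lymphocytes of the spleens of C57BL/6 mice, cultured for 12 h with anti-CD3 and anti-CD28, the antibody pair that stands in for antigen and costimulation. In db/db mice both copies of Lepr, the leptin receptor gene, are mutated, and the animals grow obese and diabetic. Their db/+ controls keep 1 working copy and are labelled wild type. There were 2 samples per genotype, 3 mice were pooled for each, and each pool was hybridised to a one-colour array. The labels give neither age nor sex, and their phenotype entry calls the db/db animals leptin-deficient where the series title names the receptor. The mutation is present in every cell of a db/db mouse, so the animals differ in metabolism as well as in their T cells.

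Galectins are lectins that bind beta-galactosides on glycoproteins of the cell surface, and galectin secreted by activated T cells can act back on T cells. Annexins bind acidic phospholipids in the presence of calcium, and S100 proteins are small calcium-binding proteins that dock onto partner proteins, of which S100a10 and Anxa2 form one complex that gathers plasminogen activation at the plasma membrane. Vimentin builds the filament network that lymphocytes rearrange when they polarise and migrate. These genes are low in naive T cells and higher in cells that have met antigen, and most of them are also strongly expressed by neutrophils, monocytes and macrophages.

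The sequence upstream of 8 of the 10 genes could be matched by symbol in the RefSeq promoter table (build GRCm38.p6), and the 250 bases before the start of 5 of them are shown because they cover both outcomes described below. Vim, Crip1 and S100a6 had db/db pools clearly above the db/+ pools, while the pools of S100a4, the close neighbour of S100a6, and of Anxa2 overlapped. Capitals mark the TATA box motif TATAAA, the motif of the GC box, which is GGGCGG, and the AP-1 motif TGANTCA, each searched on both strands, with no base shared by 2 motifs.
Vim, chr2:13574061-13574310, plus strand: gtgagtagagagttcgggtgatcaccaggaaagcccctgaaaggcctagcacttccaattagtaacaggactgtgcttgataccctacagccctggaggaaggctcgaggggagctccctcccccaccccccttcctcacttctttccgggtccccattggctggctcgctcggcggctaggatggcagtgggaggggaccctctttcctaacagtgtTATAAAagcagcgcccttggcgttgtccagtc
Crip1, chr12:113151762-113152011, plus strand: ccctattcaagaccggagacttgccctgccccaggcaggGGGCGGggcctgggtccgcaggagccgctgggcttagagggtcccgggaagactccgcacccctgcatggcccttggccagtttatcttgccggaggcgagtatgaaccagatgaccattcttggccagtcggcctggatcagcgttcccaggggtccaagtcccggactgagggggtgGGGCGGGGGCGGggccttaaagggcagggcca
S100a6, chr3:90612644-90612893, plus strand: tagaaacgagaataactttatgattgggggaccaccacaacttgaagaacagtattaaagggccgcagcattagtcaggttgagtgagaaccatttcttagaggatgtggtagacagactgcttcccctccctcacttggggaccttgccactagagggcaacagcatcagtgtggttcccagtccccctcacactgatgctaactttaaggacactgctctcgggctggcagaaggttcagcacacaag
S100a4, chr3:90603520-90603769, plus strand: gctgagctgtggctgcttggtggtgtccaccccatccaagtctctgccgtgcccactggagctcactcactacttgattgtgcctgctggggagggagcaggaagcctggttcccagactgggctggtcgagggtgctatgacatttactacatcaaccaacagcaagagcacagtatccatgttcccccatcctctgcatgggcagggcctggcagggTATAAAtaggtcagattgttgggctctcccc
Anxa2, chr9:69453433-69453682, plus strand: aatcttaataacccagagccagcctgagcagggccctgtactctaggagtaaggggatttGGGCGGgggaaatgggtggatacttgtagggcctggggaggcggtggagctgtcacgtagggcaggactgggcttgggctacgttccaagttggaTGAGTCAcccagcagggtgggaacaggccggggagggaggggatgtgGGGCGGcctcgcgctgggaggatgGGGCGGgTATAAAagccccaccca

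TATAAA stood in 4 of the 8 windows, those of Vim, S100a4, Anxa1 and Anxa2, against 12.4% of all 32851 windows of the same length in the table. GGGCGG stood in the windows of Crip1, Lgals3, S100a11 and Anxa2, again 4 of 8 and 32.7% of all windows. TGANTCA stood in those of S100a11 and Anxa2, 2 of 8 and 6.75% of all windows. In Vim, S100a4 and Anxa1 the TATAAA began at position -32, -31 and -32 relative to the annotated start, and in Anxa2 at -17. The S100a6 window held none of the 3 motifs. Vim and S100a4 shared a TATAAA at nearly the same distance and differed in how far their pools were apart. Whether the motifs bear on the differences was not tested.

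Median raw intensity ranged from 102 to 254 over the 4 arrays, and normalized values of gene features correlated across features with r of 0.975 for the db/+ pair, 0.972 for the db/db pair and 0.946 to 0.967 for pairs of unlike genotype. T cell markers were above background in every pool, among them Cd4, which read 9.67 and 9.98 in the db/+ pools and 9.94 and 9.99 in the db/db pools on the log2 scale. Lepr was at background in all pools and cannot check the labels. Transcripts from the Y chromosome separated the groups completely. Kdm5d read 5.93 and 6.31 in db/+ and 12.16 and 12.20 in db/db, and Xist, which silences an X chromosome in females, read 14.33 and 13.88 in db/+ and 10.06 and 6.60 in db/db. By these transcripts the db/+ pools read as female and the db/db pools as male, although Xist in db/db pool 1 stayed above background. Genotype and sex therefore cannot be told apart in any difference between db/db and db/+ given here. The same holds for anything else that separates the pools in this way.

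Below, a level is a normalized log2 intensity, which can be compared between pools for one feature but not between genes, and a difference is the db/db mean minus the db/+ mean. The brightest feature stands for each gene, leaving aside stretches of the array where many neighbouring spots departed between arrays, here called misread stretches. Of the 15 features 3 lay in such stretches, and 2 of the 15 were below the background level of 7.55 in every pool. In bulk RNA a lower share of expressing cells and less RNA per cell cannot be told apart.

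Vim encodes vimentin. It read 12.75 and 13.42 in the db/+ pools and 15.22 and 15.40 in the db/db pools. It had the widest difference of the 10 genes, 2.23, a 4.68-fold higher level in db/db. The SD of the levels was 0.47 in db/+ and 0.13 in db/db (n = 2 pools per group). Of 9186 genes above background 36 had a larger upward difference. The groups were well apart although the db/+ pools differed from each other by 0.67. Raw intensity was 10031 and 10436 in db/+ and 27120 and 56532 in db/db, all below the scanner's maximum. A further Vim feature, in a misread stretch, was at background in all pools and carries no reading.

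Crip1, a small LIM domain protein, was read by 2 features on different grid lines, both outside misread stretches. The brighter read 13.07 and 13.15 in db/+ and 14.32 and 14.14 in db/db, a difference of 1.12 or 2.17-fold (SD 0.06 and 0.12, n = 2). The dimmer, designed to another transcript record, read 12.20 and 12.42 in db/+ and 13.94 and 13.76 in db/db, a difference of 1.54. The db/db pools were the high ones on either feature, and pools of one genotype lay within 0.21 of each other.

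Lgals1 encodes the galectin made in quantity by activated T cells. It read 12.72 and 12.998 in db/+ and 14.16 and 14.12 in db/db, 2.43-fold higher in db/db (difference 1.28, SD 0.19 and 0.04, n = 2). Lgals3, a galectin with a collagen-like tail that forms lattices with branched glycans, read 11.42 and 11.77 in db/+ and 13.03 and 12.73 in db/db, 2.44-fold higher (difference 1.29, SD 0.25 and 0.21). Both galectins had db/db pools above both db/+ pools, with a gap of 1.12 for Lgals1 and 0.97 for Lgals3 between the nearest pools. Each rested on a single feature.

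S100a10, the S100 protein that no longer binds calcium and pairs with Anxa2, read 13.27 and 13.02 in db/+ and 14.63 and 14.29 in db/db, 2.48-fold higher (difference 1.31, SD 0.18 and 0.24, n = 2). S100a6, also called calcyclin, read 12.03 and 12.26 in db/+ and 13.26 and 13.09 in db/db, 2.04-fold higher (difference 1.03, SD 0.17 and 0.12). Neither gene's groups overlapped. S100a11, which binds Anxa1, read 12.92 and 13.24 in db/+ and 13.65 and 13.42 in db/db, a difference of 0.45. Its groups were apart by only 0.18 between the nearest pools, less than the 0.32 between the db/+ pools, and without db/+ pool 1 the difference was 0.29.

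S100a4, which binds the heavy chain of non-muscle myosin and is linked to cell motility, behaved differently. It read 12.93 and 12.34 in db/+ and 13.40 and 12.81 in db/db, so the groups overlapped. The difference of 0.47 was close to the spread within either group (SD 0.42 and 0.41, n = 2). In both genotypes pool 1 was the high one. The difference was 0.77 without db/+ pool 1 and 0.18 without db/+ pool 2, and 0.18 without db/db pool 1 and 0.77 without db/db pool 2. A further S100a4 feature was at background in all pools.

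Anxa1, which is released to act on formyl peptide receptors, read 11.13 and 11.94 in db/+ and 12.53 and 12.41 in db/db, a difference of 0.93 (SD 0.57 and 0.09, n = 2). The groups did not overlap, but the db/+ pools stood 0.81 apart, more than the 0.47 between the nearest pools of the 2 groups. Without db/+ pool 1 the Anxa1 difference was 0.53. Anxa2 read 12.63 and 12.71 in db/+ and 12.60 and 13.50 in db/db. Its db/db pool 1 lay below both db/+ pools and its db/db pool 2 above them, and the difference of 0.38 was smaller than the SD of 0.63 within db/db. It was 0.83 without db/db pool 1 and -0.07 without db/db pool 2. The 2 remaining Anxa2 features lay on one misread line and differed by -2.03 and -1.87, with db/db pool 2 at 6.92 and 7.51 there against 9.60 and 10.32 in db/db pool 1. S100a10 and Anxa2, which bind each other in one protein complex, therefore did not show the same pattern over the 4 pools.

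**Figure D1:**
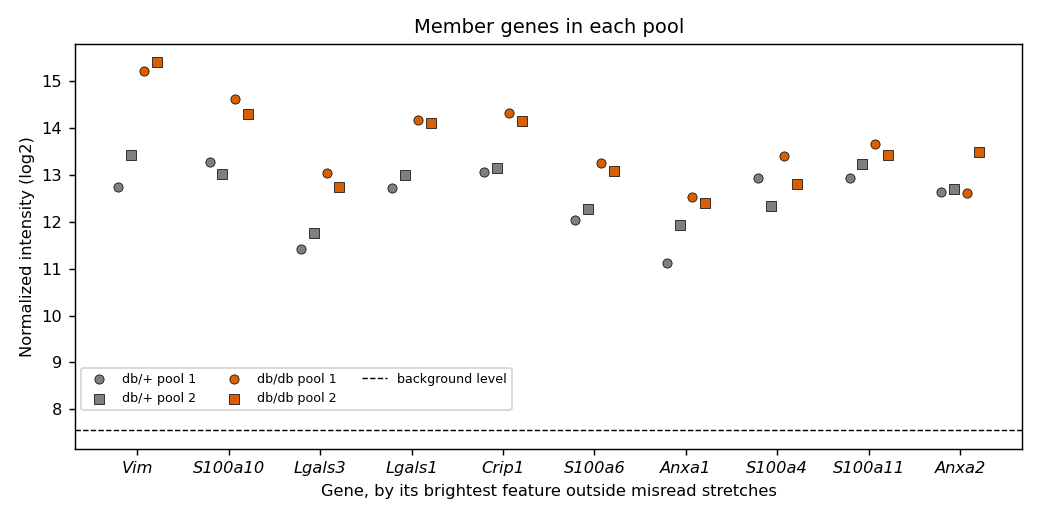
Normalized log2 intensity (vertical axis) of the 10 genes (horizontal axis, ordered by difference) in the 2 db/+ pools (grey) and the 2 db/db pools (orange), with pool 1 as circles, pool 2 as squares and the background level of 7.55 as a dashed line. Compare pools within a gene only: for 8 genes both orange points lie above both grey ones, while those of S100a4 and Anxa2 overlap.

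Over the 10 genes the median difference was 1.07, against 0.20 over the 9186 genes above background, whose 5th and 95th percentiles were -0.65 and 1.21. Vim, S100a10, Lgals3 and Lgals1 lay beyond that 95th percentile. Both db/db pools were above both db/+ pools in 8 of 10 genes, and in 36.5% of all genes outside misread stretches (35.1% of features). With limma over all gene features none of the 15 features passed an adjusted p of 0.05, where 0.997% of all features did (0.578% as higher). An unadjusted p below 0.05 was reached by 8 of the 15, and by 19.5% of all features. Among these 8 was the Vim feature at background in all pools. With the misread stretches left out, a rule set after the data had been seen, 7 of 12 features passed, all higher in db/db, where 8.2% of features passed (6.69% as higher and 1.51% as lower). These were both features of Crip1 and those of Lgals1, Lgals3, S100a6, S100a10 and Vim. With the replicate number as a block in addition 3 of 12 passed, where 1.75% of features did (1.56% as higher). Nothing is read from these counts, since the genes were chosen with this contrast known. Leaving 1 of the 4 pools out leaves a group with 1 pool, so no count is given for those fits.

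Leaving the misread spots out before normalization, rather than after it, lowered the differences of bright features. The median over gene features above background and outside the stretches moved from 0.19 to -0.02, and that over the 10 genes from 1.07 to 0.93. The same 7 features passed, where 7.57% of features did (4.32% as higher and 3.24% as lower). Vim differed by 2.11, S100a10 by 1.21, Lgals1 by 1.15, Lgals3 by 1.08, Crip1 by 0.995 and S100a6 by 0.86 on that scale. Anxa1 differed by 0.70, S100a4 by 0.32, S100a11 by 0.31 and Anxa2 by 0.21. The order of the genes by size stayed nearly as it was, with Lgals1 ahead of Lgals3.

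**Figure D2:**
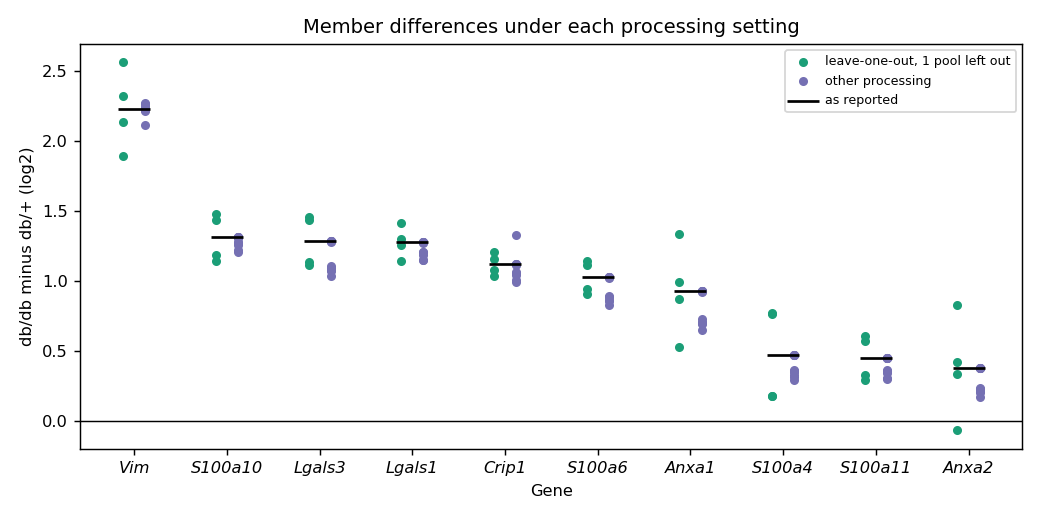
Difference between db/db and db/+ (log2, vertical axis) of each gene (horizontal axis) as reported (black bar), with each pool left out in turn (green points) and under other background corrections, scalings and treatments of misread stretches (purple points). Of all points only 1, that of Anxa2 without db/db pool 2 at -0.07, lies below 0.

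The difference between the 2 pools of one genotype was not used to choose the genes. In db/+, pool 2 was above pool 1 in 8 of the 10 genes, by a median of 0.26 over the 10, against a median of 0.15 over the 9186 genes (5th to 95th percentile, -0.48 to 0.71). Anxa1 at 0.81 lay above that range and S100a4 at -0.59 below it, while Vim at 0.67 lay just inside. In db/db, pool 2 was above pool 1 in 2 genes only, Anxa2 and Vim, with a median of -0.17 over the 10 and -0.06 over all genes (-0.52 to 0.44). Anxa2 at 0.89 lay above the range and S100a4 at -0.58 below it. S100a4 was thus outside the range of most genes in both genotypes and in the same direction.

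The S100 genes of mouse chromosome 3 gave readings for the neighbours of the 4 followed here. S100a4 and S100a6 sit close together, S100a4 at chr3:90603770-90606045 and S100a6 at chr3:90612894-90614414 with only S100a5 between them, while S100a11 (chr3:93520496-93526288) and S100a10 (chr3:93555117-93564645) form another pair on that chromosome (GRCm38.p6). Of 11 other S100 genes measured, S100a13, a partner in the release of proteins that lack a signal peptide, rose from 12.24 and 12.28 to 13.58 and 13.67, 2.58-fold (limma adjusted p = 0.0421 over all gene features and 0.0148 with misread stretches left out). The same 2 p-values follow for each gene below. Over genes rather than features, 7.49% passed as higher and 1.57% as lower with misread stretches left out, and 4.96% and 3.23% when normalized again. S100a8 and S100a9, which form calprotectin, the main cytosolic protein of neutrophils, were 5.35-fold (adjusted p = 0.0712 and 0.0214) and 7.37-fold higher (0.119 and 0.0414). S100a1 was 2.29-fold higher (0.129 and 0.0496), past the threshold only with misread stretches left out after normalization and not when normalized again (0.0517). The remaining 7 were at background in every pool, among them S100a5, which lies between S100a4 and S100a6, and S100a3 next to S100a4. The 4 genes above background were thus all called higher with misread stretches left out.

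Among the 10 other annexin genes 3 were at background, and 3 of 10 passed as higher with misread stretches left out, none over all features. Anxa4 read 10.12 and 10.44 in db/+ and 11.66 and 11.64 in db/db, 2.58-fold higher (adjusted p = 0.0658 and 0.0204), on 1 of its 2 features outside misread stretches. Anxa5, which binds phosphatidylserine on dying cells, was 1.90-fold higher (0.0846 and 0.0305). Anxa6 was 2.06-fold higher (0.103 and 0.0378) on 1 of its 2 features, a call that was lost when the arrays were normalized again without the stretches (0.0855). Of 7 other galectin genes measured, Lgals4, a galectin of gut epithelium, rose 2.89-fold on the brighter of 2 features, from 9.68 and 9.77 to 11.21 and 11.30 (0.0409 and 0.0146), and no other galectin passed by its brightest feature. A dimmer feature of Lgals8, 1 of 2, passed as higher with misread stretches left out. Only 4 of the 7 galectin genes were above background. Lgals9 read 11.41 and 12.04 in db/+ and 12.49 and 12.62 in db/db (0.231 and 0.115). None of 5 other cysteine-rich LIM protein genes and none of 14 other intermediate filament genes passed in either fit by its brightest feature. Only 4 of the 5 LIM genes and 6 of the 14 filament genes were above background. The fit with misread stretches left out held 4 and 12 of them, of which 3 and 5 were above background. Lmna, a filament gene of the nuclear lamina that is higher in memory than in naive T cells, read 10.82 and 11.09 in db/+ and 11.86 and 11.54 in db/db (0.162 and 0.0717), and 2 of its 3 features passed as higher with misread stretches left out.

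Of 14 measured binding partners and receptors of these proteins, 5 of 12 outside misread stretches passed as higher and 1 as lower. Fpr2, the receptor through which Anxa1 acts on myeloid cells, read 8.50 and 8.67 in db/+ and 11.86 and 11.99 in db/db, 10.1-fold higher (adjusted p = 0.0290 and 0.0115) on both of its features. Ahnak, the giant scaffold protein held at the membrane by S100a10 and Anxa2, was 2.02-fold higher (0.122 and 0.0468), on 1 of 4 features. Plat and Plaur, a plasminogen activator and the receptor of another, were 1.97-fold (0.107 and 0.0403) and 2.36-fold higher (0.0906 and 0.0308), on 1 of 3 and 1 of 2 features. Lgals3bp, a secreted glycoprotein bound by galectins, was 1.72-fold higher (0.0746 and 0.0284). Cd7, a surface glycoprotein of T cells bound by galectin-1, was lower, at 9.71 and 10.01 in db/+ and 8.63 and 8.43 in db/db, 2.52-fold (0.0721 and 0.0229). The S100a6 partner Cacybp was called lower over all features, but its only feature lay in a misread stretch.

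Other genes of the T cell programme were read beside these. Of 28 measured genes of effector memory T cells outside the 10, none passed over all features, and 2 of 25 passed as higher with misread stretches left out, a share close to the 7.49% of all genes. These were Ly6c1 (1.80-fold, adjusted p = 0.0887 and 0.0325) and Plp2 (1.72-fold, 0.112 and 0.0444), of which Plp2 was not called when the arrays were normalized again (0.0681). Cd44, the standard marker of antigen-experienced T cells, read 13.85 and 14.04 in db/+ and 13.92 and 13.99 in db/db, and its groups overlapped. Their median difference was 0.40, below the 1.07 of the 10 genes. Of 11 genes of naive T cells outside misread stretches, 4 passed as higher and 1 as lower. Igfbp4 was 3.72-fold (0.0603 and 0.0173) and Txk, a TEC family kinase, 2.67-fold higher (0.0633 and 0.0197), and S1pr1 was 3.03-fold (0.106 and 0.0369) and Il7r, the interleukin 7 receptor, 2.65-fold higher (0.0921 and 0.0306), which was lost when normalized again (0.0565). Foxp1, a factor of T cell quiescence, was 1.59-fold lower (0.0931 and 0.0383). Il7r passed on 1 of 3 and Foxp1 on 1 of 2 features outside misread stretches. Ccr7, Satb1 and Ccr9 had overlapping groups and differed by -0.17, -0.12 and 0.12. Of the 11 naive genes 8 had differences above 0. The naive list had a median difference of 0.66, above that of the effector memory list.

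Some markers of other cells, though not all, differed between the same pools as the 10 genes. With misread stretches left out, 7.49% of all genes passed as higher and 1.57% as lower, the shares for the counts that follow. Of 13 neutrophil markers outside misread stretches 7 passed as higher, and their summed linear level was 8152 to 22193 in db/+ and 74560 to 77866 in db/db, with Cxcr2 and Fcnb at background throughout. Mpo, the myeloperoxidase of neutrophil granules, was not among the 7 and read 9.06 and 12.47 in db/+ and 10.07 and 9.75 in db/db, a difference of -0.86 with overlapping groups. Elane, a granule protease whose feature lay in a misread stretch, differed by -1.52. Of 11 macrophage and monocyte markers 4 passed, with a sum of 5773 to 11625 in db/+ and 32540 to 34728 in db/db. C1qb and Marco were at background throughout, as were Fcgr1 and C1qa, whose features lay in misread stretches. Lyz2, the lysozyme of myeloid cells, read 11.31 and 12.67 in db/+ and 14.42 and 14.34 in db/db (adjusted p = 0.141 and 0.0530). The 10 genes summed to 63184 to 70400 in db/+ and 149742 to 156124 in db/db. Each sum follows its brightest features, such as S100a9 among the neutrophil markers, so sums are read between pools and not between lists.

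Of 10 B cell markers 4 passed as higher, where 7.49% of all genes did. Their sum was 9234 to 12809 in db/+ and 14885 to 20496 in db/db, with Cr2, Pax5 and Blk at background. Both CD8 T cell markers passed, Cd8a 2.90-fold higher (adjusted p = 0.0751 and 0.0236) on all 11 features outside misread stretches, although the cells are labelled CD4+. Of 7 T cell markers 1 passed, Thy1 at 2.89-fold higher (0.0627 and 0.0188), with a sum of 61202 to 74535 in db/+ and 99218 to 101029 in db/db. Cd5, a T cell surface receptor, read 14.91 and 14.58 in db/+ and 11.14 and 10.73 in db/db and was called lower over all features (adjusted p = 0.03845), but its only feature lay in a misread stretch, though not when stretches were judged within a genotype. Of 5 regulatory T cell markers none passed as higher and 1 as lower. This was Il2ra, which encodes the CD25 used to deplete such cells (0.101 and 0.0419), on 1 of 4 features. Differences were above 0 for 3 of the 5, among them Foxp3 at 0.74. The Foxp3 groups were only 0.05 apart between the nearest pools, and db/+ pool 2 minus pool 1 was -1.25. Whether Il2ra follows the share of such cells in these stimulated cultures was not tested. None of 7 NK cell, 5 dendritic cell and 5 erythroid and platelet markers passed. At a share of 7.49% lists this short hold few or no calls, so nothing is read from that count. The NK cell marker Klrb1c was called lower when normalized again (0.0426). Only 2 of the 5 dendritic cell markers and 4 of the 5 erythroid and platelet markers were above background. Of 9 stromal and endothelial markers 1 passed, Pecam1, on 5 of its 8 features outside misread stretches, which was lost when normalized again (0.0625). Col1a1, Col3a1, Dcn, Pdgfra and Cdh5 were at background in every pool. The part of these cells in the values of the 10 genes was not tested.

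Within db/+, Lyz2 was 1.36 and S100a9 1.44 higher in pool 2 than in pool 1, and in db/db both lay within 0.09 between the pools. Anxa1 and Vim, the members with the largest rise from db/+ pool 1 to pool 2, went the same way. S100a10 and S100a4 were lower in db/+ pool 2 than in pool 1, by -0.25 and -0.59. Ltf and Ngp, granule proteins of neutrophils, were level between the db/+ pools (-0.01 and -0.04) and far higher in db/db, 10.8-fold for Ltf (adjusted p = 0.0290 and 0.0104) and at least 7.50-fold for Ngp, which was at background in db/+ (0.0290 and 0.0124). The markers thus did not follow one pattern over the 4 pools.

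**Figure D3:**
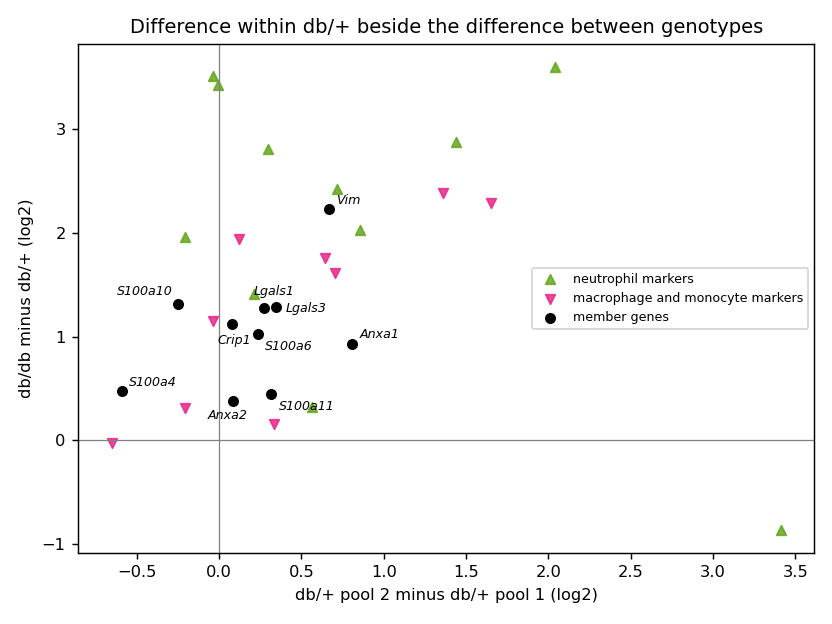
Difference between db/+ pool 2 and pool 1 (horizontal axis, log2) and between db/db and db/+ (vertical axis, log2) for the 10 genes (black, named), neutrophil markers (green) and macrophage and monocyte markers (pink) above background. Both axes use the db/+ pools, so no relation between them is read; Anxa1 and Vim lie farthest right among the 10 genes and S100a4 farthest left.

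The genes outside the 10 whose levels over the 4 pools, centred on their mean, lay nearest to the median of the 10 were Palld (distance 0.046 in log2), Fut11 (0.050) and Ift122 (0.053), of 9176 candidates above background. Palld, which encodes the actin-binding protein palladin, read 10.11 and 10.30 in db/+ and 11.36 and 11.21 in db/db. Among the 10, Crip1 lay as near (0.046) and S100a6 at 0.11, while Vim at 1.21, Anxa2 at 1.03 and S100a4 at 0.87 lay farthest.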

How the data were processed

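Per the file headers, the authors deposited raw median foreground intensity for each feature, and per the submitters' processing notes they used limma. The authors' deposited value table holds log2 values that equalled quantile-normalized log2 raw intensities without background correction. Here limma 3.58.1 (R 4.3.3) was used for normexp correction of the intensities (offset 50), quantile normalization on the log2 scale and the two-sided moderated test of db/db against db/+ (lmFit and eBayes). P-values were adjusted by Benjamini-Hochberg over the features in each fit, 33709 for all gene features and 25467 with misread stretches left out.

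Feature positions were inferred from the data, and every gene name rests on that layout: features of 1 accession differed by a median of 0.138 in log2, against 1.10 with row numbers taken as feature numbers. A grid line was called misread where over 5% of its 266 spots on any array departed by more than 2 in log2 from the other 3 arrays' median (40 of 170 lines), and so was any run of 15 spots in which 3 or more departed. This took 8242 gene features and kept 25467. Since spots were dropped for departing, the rule also narrows the spread that enters the test and is not independent of the comparison. A group was at background where both pools lay below 7.55, the median over gene features, and where 1 group was, the fold is a lower bound measured from 7.55.

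The genes, the lists, the misread rule and the rule for named genes (the 10, up to 3 of each list with the smallest p, the 3 nearest profiles and 14 fixed genes) were chosen with earlier results of these data known. Further list genes that passed a test, and Cd44, Lmna, Mpo, Elane, Cd5, Klrb1c, Ccr7, Satb1, Ccr9 and genes at background, were named after their values were seen. The labels do not tie replicate numbers to the 2 experiments, and nothing says which pools were processed together. The number of arrays limits the precision.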

Additional observations from a re-analysis of the deposited data

How the results depend on the processing

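Over all gene features 336 were called between db/db and db/+ (195 higher), and 149 with cyclic loess. The count was 396 with median scaling, of which 126 were higher. With misread stretches left out it was 2089 (1705 higher), with the stretches judged within a genotype alone 2173, and with them left out before normalization 1927 by quantiles (1101 higher), 1989 by median scaling (1152) and 1753 by cyclic loess (1090). The counts of 336 and 2089 each fell to 0 with any of the 4 pools left out. Same-numbered pools deviated with a correlation of -0.03, so the numbers are not taken to pair them. With the replicate block 0 features were called, and 445 with misread stretches left out as well.

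Of the 15 features of the 10 genes 0 were called, and 1 with median scaling. In each of the 5 fits without misread stretches it was 7 of 12, or 7 of 13 with those judged within a genotype. With the replicate block in addition it was 3 of 12. The median difference of 1.07 over the 10 genes became 0.97 with median scaling and 0.98 with cyclic loess. It was 0.93, 0.92 and 0.95 with misread stretches left out before quantile, median and cyclic loess scaling. With 1 pool left out it ranged from 0.99 to 1.17. Of 102 genes of the other lists 4 were called, 1 with cyclic loess and 0 with the replicate block. With dim features left out it was 1 of 74. Without misread stretches it was 21 of 89, and 19 of 89 with those judged within a genotype. With misread stretches left out before the 3 scalings it was 17, 20 and 18 of 89. With the replicate block and without misread stretches it was 7 of 89.

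Cd4, called in no fit, changed sign to -0.12 (median scaling), -0.11 (cyclic loess), -0.17, -0.17 and -0.16 (misread stretches left out before quantile, median and cyclic loess scaling) and -0.018 (without db/+ replicate 1, with or without misread stretches), its range with 1 pool left out being -0.018 to 0.296. Lepr, at background, changed sign to -0.039 without db/db replicate 1, in a range of -0.039 to 0.152.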
